A study of Oryza sativa Indica Group with 64 samples.

Results

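Control leaves of rice taken at late night were set against control leaves taken at dawn, to ask how closely the daily cycle of transcripts closed. The members were the 4 libraries labelled control at 23 h after dawn and the 4 labelled control at dawn, 8 of the 64 libraries of the series, chosen by their labels alone. Late night and dawn stand at the far ends of the sampling and are 1 h apart on the 24 h clock. The deposited labels and the paper do not say on how many days leaves were taken or whether dawn leaves came from the day before or after the late-night leaves. The comparison is of clock positions, and the day of harvest and the hour cannot be told apart.

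The series held poly(A) RNA from leaves of the indica variety IR64, grown on field plots at IRRI in the Philippines in the dry season. Control plants grew in the field with no heater, and WNT plants grew in the same kind of setting with an infrared heater at night. Each treatment was sampled at dawn, at 3, 7 and 10 h after dawn, at dusk, and at 14, 17 and 23 h after dawn, with 4 replicates at each. The comparison used control 23 h and control dawn leaves, with WNT 23 h and WNT dawn leaves as the same step in other libraries, and the 6 remaining control time points as the rest of the day. The paper calls the tissue flag leaf and the treatment high night temperature. Nothing in the labels says that replicates came from separate plants or plots, so p-values measure only the spread between these samples, which may be technical.

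In plants, the circadian clock and the cycle of light and dark set daily rhythms in a large part of the leaf transcriptome. Transcripts for light harvesting and carbon fixation generally rise around dawn and through the morning, and clock genes of the LHY and CCA1 type peak near dawn while others such as TOC1 and GI peak later in the day. A rhythm that repeats each day returns at the end of the night to a level near that of dawn. Gene identifiers could not be paired with gene names here, because none of the 57174 identifiers matched the gene table at hand, so no clock or photosynthesis gene, no marker of leaf cells or of another organ, no role and no sequence is given for any member.

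Before the results, 3 of the 8 libraries must be named. Late-night replicate 2 and dawn replicates 1 and 3 stood apart from the other 5 control libraries. Among the 3, Pearson's r of log2 CPM (counts of a gene scaled to a fixed library total) over 20525 tested genes was 0.955 to 0.969, and among the other 5 it was 0.967 to 0.979. Between a library of the 3 and a library of the 5 it was 0.920 to 0.958. On the first principal component, which held 46.6% of the variance among the 8, late-night leaves scored 38.3, -52.2, 38.3 and 53.7 for replicates 1 to 4, and dawn leaves scored -84.9, 48.2, -74.3 and 32.8. The largest source of variation among the 8 libraries therefore ran across the labels, with low and high scores in each group. The mean score did not differ between the groups beyond their spread (exact two-sided permutation test over 70 splits, p = 0.257, where the smallest p possible was 0.0286). In the WNT libraries, late-night replicates 1 and 4 stood apart from the other WNT late-night and dawn libraries. Whether the time labels of these libraries hold could not be settled from the files, and every value set between late night and dawn here takes the labels as given. The part of these libraries in the results was not tested. Counts of called genes are given with and without them. Group means, intervals, counts of genes without overlap, nearest times and daily ranges were read with all libraries only.

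**Figure D1:**
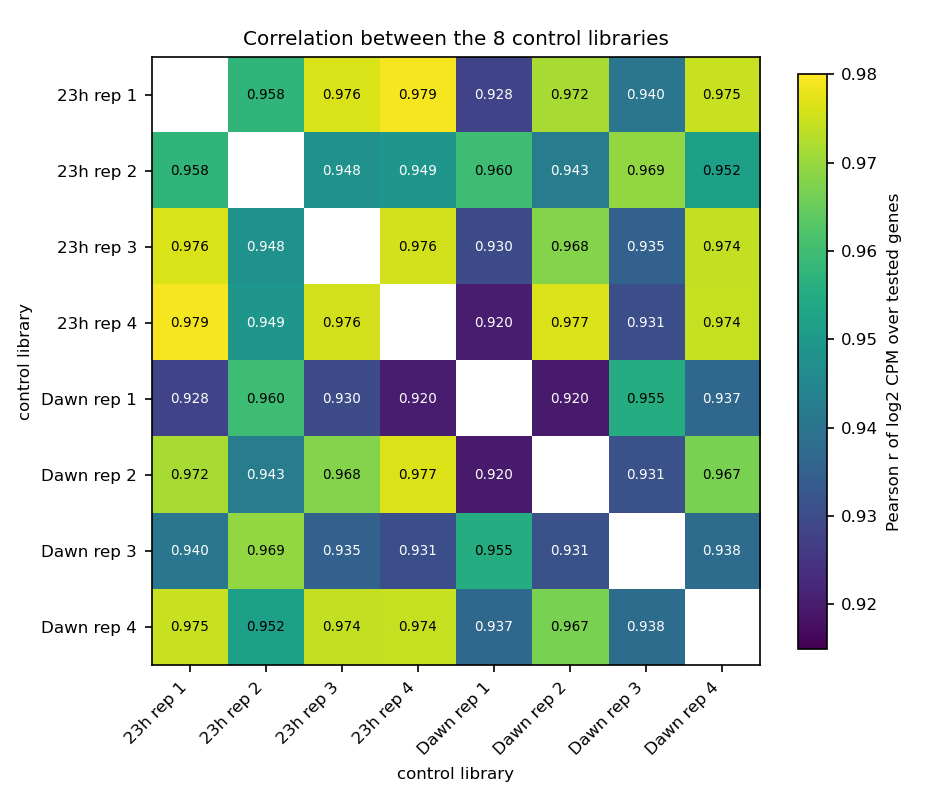
Pearson's r of log2 CPM between each pair of the 8 control libraries over 20525 tested genes, with 23 h libraries before dawn libraries on both axes. Late-night replicate 2 and dawn replicates 1 and 3 correlated with the other 5 at 0.920 to 0.958, below the 0.967 to 0.979 among those 5.

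By the median, late-night and dawn leaves were closer to each other than dawn leaves were among themselves. The 16 pairs of a late-night and a dawn library had a median r of 0.956, with a range of 0.920 to 0.977. The 6 pairs of late-night libraries had a median of 0.967 (0.948 to 0.979), and the 6 pairs of dawn libraries had a median of 0.937 (0.920 to 0.967). Among the 5 libraries that did not stand apart, r was 0.968 to 0.977 between late night and dawn, 0.976 to 0.979 within late night and 0.967 for the dawn pair. The spread between replicates was smaller at late night, with a median SD over genes of 0.26 on the log2 CPM scale, against 0.36 at dawn. Of the 8 libraries, 5 had their most similar library in the other group, namely all 4 dawn libraries and late-night replicate 2. The other 3, late-night replicates 1, 3 and 4, were nearest to another late-night library, and none was nearest to a library of any other time point. Within the 8, each library had 4 possible neighbours in the other group and 3 in its own. Labels placed at random would thus more often give a neighbour in the other group, and the count of 5 is a description. The mean profile of late-night leaves correlated with that of dawn leaves at 0.988, against 0.939 with the mean profile at 3 h and 0.936 with that at 17 h, the next nearest control times. These correlations are across genes, which are not independent replicates, and they carry no test.

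Library measures overlapped between the groups. Counts on genes ran from 7665127 to 15314615 in late-night libraries, against 6488788 to 20764372 in dawn libraries. Reads that did not align made up 13.3% ± 1.09 of late-night reads and 14.7% ± 1.62 of dawn reads (SD, n = 4 each). For the 6 measures the unadjusted p ran from 0.2 to 0.971 and the adjusted p from 0.857 to 0.971 (exact permutation tests, Benjamini-Hochberg adjustment). A measure that alone was fully separated could reach no adjusted p below 0.171, so the adjusted test could not have passed for it. At this depth 18776 genes had at least 1 count in all 8 libraries and 27155 had none in any. Only 11 genes were counted in every late-night and no dawn library, and 15 in every dawn and no late-night library, and none of these had more than 20 counts in sum. Of the 100 most abundant genes by mean CPM, 89 were shared between late night and dawn, where 57 were shared between late night and 17 h and 73 between 3 h and dawn.

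Gene by gene, 5 genes were called between late-night and dawn leaves, and all 5 were lower at late night. They were 0.0244% of the 20525 genes tested with edgeR's quasi-likelihood test at a Benjamini-Hochberg adjusted p under 0.05. At an unadjusted p under 0.05 there were 1111 genes, or 5.41% of those tested. The absolute log2 fold change had a median of 0.21 over all tested genes, and the signed median was -0.02. In 1449 genes, 7.06% of those tested, the estimate was larger than 1 on the log2 scale in either direction, and 5 of these passed the test. The groups did not overlap in 817 genes, 3.98% of those tested, of which 360 were higher and 457 (2.23%) lower at late night. Labels placed at random on 4 and 4 libraries would give no overlap with a probability of 0.0286. Genes with no change would have an unadjusted p under 0.05 with a probability of 0.05.

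The number of calls rested on the libraries used. Without late-night replicate 2 and dawn replicates 1 and 3, no gene passed edgeR's test and 499 of 21281 tested genes had an unadjusted p under 0.05. Leaving out any of the 8 libraries moved the count, to 22 without dawn replicate 2, to 2 without late-night replicate 3, and to 0 without any of the other 6 in turn. Each fit without some libraries also had fewer replicates, and the part of that in the counts was not tested. A fit to the 2 compared groups alone called none, with 1376 of 16571 tested genes at an unadjusted p under 0.05. Other tools called more, with 21 by DESeq2 and 55 by limma-voom with quality weights, of which 20 and 39 were lower at late night. Scaling by DESeq2-type size factors gave 8 calls, with 1 higher and 7 lower at late night, where TMM scaling gave none higher.

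A count of calls does not say how large a difference the data could hold, so the interval of each difference was read as well. The median standard error of a log2 fold change was 0.30. The 95% interval lay wholly within a 2-fold change in either direction in 12268 genes, or 59.8% of those tested. It lay within a 1.5-fold change in 6177 genes, or 30.1%. It lay wholly beyond a 2-fold change in 15 genes, with no adjustment for the number of genes. In the remaining genes the interval reached past 2-fold, so a difference of that size was not bounded at this depth and number of replicates.

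Set beside the 7 other steps between neighbouring control time points, late night and dawn had the fewest called genes. The step from dawn to 3 h had 5469 (26.6% of tested genes), that from 3 to 7 h had 2419 (11.8%) and that from 7 to 10 h had 3964 (19.3%). From 10 h to dusk 189 genes were called (0.921%), from dusk to 14 h 1110 (5.41%) and from 14 to 17 h 510 (2.48%). From 17 to 23 h there were 6354 (31%), the most of the 8 steps. Genes whose groups did not overlap made up 3.98% for late night and dawn, 6.31% for 14 to 17 h, 8.38% for dusk to 14 h, 9.36% for 10 h to dusk, 11.8% for 3 to 7 h, 22.1% for each of dawn to 3 h and 7 to 10 h, and 33.2% for 17 to 23 h. The median absolute log2 fold change was 0.21 for late night and dawn, 0.24 for the step from 10 h to dusk, and 0.28 to 0.47 for the other 6. The count for late night and dawn stayed the lowest of the 8 under all 21 alternatives in which the steps were counted, including the fit without the 3 libraries that stood apart. Where libraries were left out, they came from the late-night and dawn groups only. Those fits leave this step fewer replicates than steps that use neither group, which favours fewer calls for it. The steps share libraries, so the order carries no test. They also differ in length, from 1 h on the clock for late night and dawn to 6 h for the step before it, and the hour of dusk is not in the labels.

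**Figure D2:**
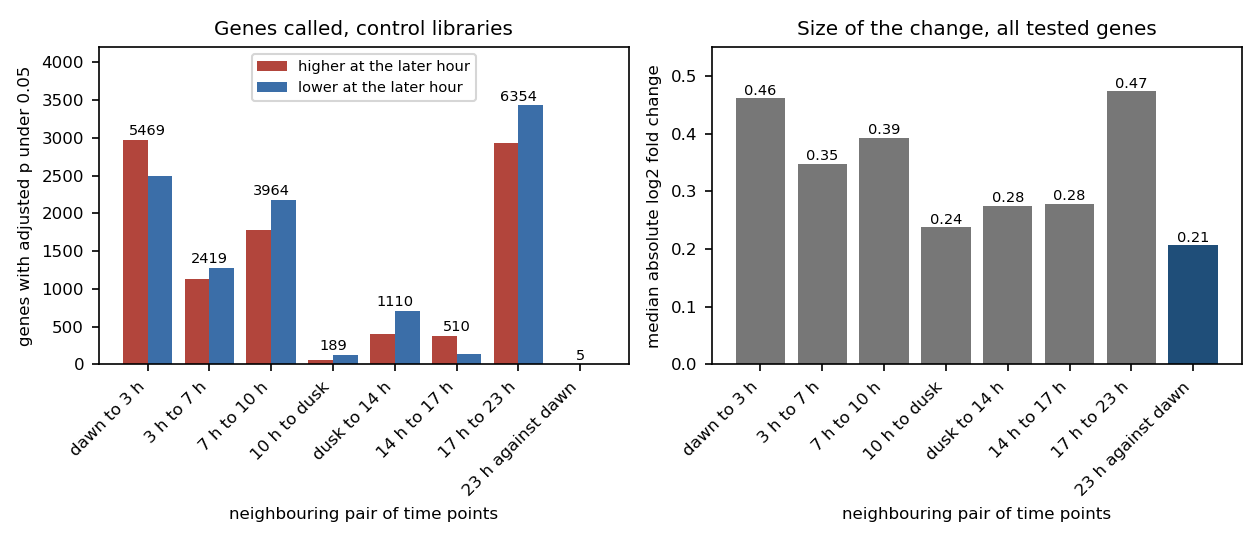
Left, genes called (edgeR, adjusted p under 0.05) for each of the 8 neighbouring pairs of control time points, with the total above the bars; right, the median absolute log2 fold change over 20525 tested genes. Late night and dawn had 5 calls and a median of 0.21, the lowest of the 8 in each panel.

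The position of the 2 groups in the day was then read from the other control time points. For each gene, the time whose mean lay nearest to that at late night was dawn in 9255 genes, or 45.1% of those tested, followed by 17 h in 13.4% and 3 h in 12.7%. For dawn, the nearest mean was that of late night in 9267 genes (45.1%), followed by 3 h in 13.8% and 17 h in 11.4%. The mean of 3191 genes was highest of the 8 times at late night, and in 2134 of these (66.9%) dawn came second. The mean of 2861 genes was highest at dawn, and in 1757 of these (61.4%) late night came second. Thus in most genes that peaked in either group, the neighbour across the end of the day held the next level.

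A set of 5086 genes had 17 h and 3 h means that differed by more than 1 on the log2 scale, and each of the 8 libraries was placed on the path between those means, where 0% is the 17 h level and 100% the 3 h level. The median position over these genes was 52.8%, 71.4%, 49.9% and 43.8% in late-night leaves, against 79.1%, 57.2%, 80.6% and 42.3% in dawn leaves. The groups overlapped, with the lowest position in a dawn library, and the 3 highest positions belonged to the 3 libraries that stood apart. The group means were 54.4% ± 11.9 at late night and 64.8% ± 18.4 at dawn (SD, n = 4 each). Among genes higher at 3 h than at 17 h, the medians were 35.3% to 88.8% at late night and 33.0% to 99.3% at dawn. Among genes lower at 3 h they were 48.5% to 54.0% at late night and 47.9% to 63.4% at dawn, so the libraries differed mostly in the genes that were higher at 3 h. The position was chosen after the data were seen and is given without a test.

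Whole profiles placed the libraries in the same way. Each library's r with the control 17 h profile minus its r with the control 3 h profile was -0.0017, -0.0304, 0.0021 and 0.0157 at late night, against -0.0440, -0.0017, -0.0469 and 0.0179 at dawn. Values near 0 mean equal likeness to both times, and the groups overlapped (exact two-sided permutation test, p = 0.429, adjusted p = 0.429 over 2 placements). A second placement used WNT libraries only, as r with the WNT 23 h profile minus r with the WNT dawn profile. It was -0.0179, 0.0179, -0.0175 and -0.0169 for control late-night leaves, against 0.0230, -0.0180, 0.0184 and -0.0147 for control dawn leaves. Of the late-night libraries, 3 were thus more like the WNT dawn profile, and of the dawn libraries 2 were more like the WNT 23 h profile. A value of 0 does not divide the 2 times on this measure. WNT late-night replicates 2 and 3, which are part of the WNT 23 h profile, had -0.0022 and -0.0006 themselves. The WNT 23 h profile includes the WNT late-night replicates 1 and 4 that stood apart. The groups overlapped (exact permutation test, p = 0.286, adjusted p = 0.429), and a placement that alone was fully separated could reach no adjusted p below 0.0571.

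**Figure D3:**
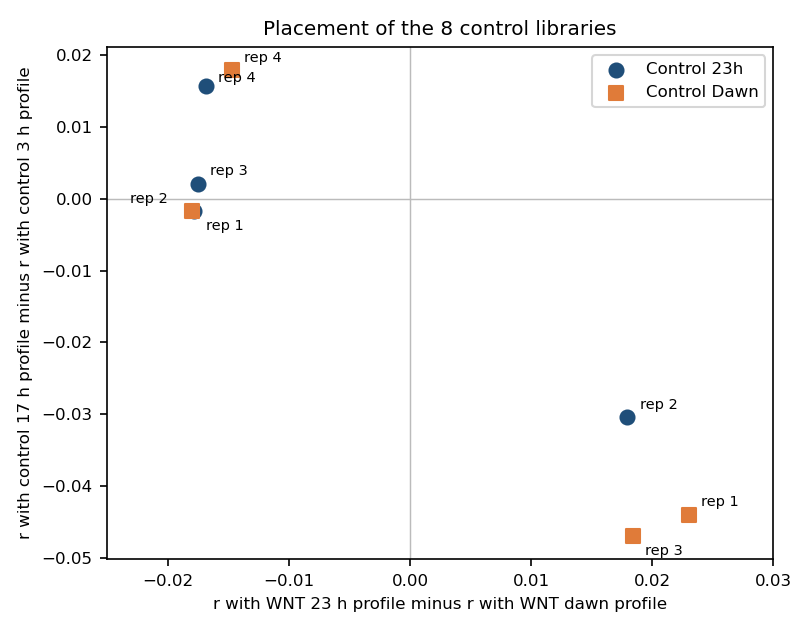
Placement of the 8 control libraries, with r to the WNT 23 h profile minus r to the WNT dawn profile on the horizontal axis and r to the control 17 h profile minus r to the control 3 h profile on the vertical axis. Late-night replicate 2 and dawn replicates 1 and 3 lie at 0.0179 to 0.0230 on the horizontal axis and the other 5 libraries below 0, with both labels on each side.

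Genes with a wide daily range differed less between late night and dawn than across the steps on either side. The range was taken as the highest minus the lowest group mean over the 6 other control times, so that neither late night nor dawn entered it. In 3647 genes with a range under 0.5 on the log2 CPM scale, the median absolute difference between late-night and dawn means was 0.11. It was 0.39 in 842 genes with a range of 3 to 4, and 0.32 in 452 genes with a range of 4 or more. In those 452 genes the median difference was 2.61 between 23 h and 17 h and 1.13 between 3 h and dawn, the steps on either side. A difference over 1 was found in 52 of the 452 genes between late night and dawn (11.5%), against 363 (80.3%) between 23 h and 17 h and 242 (53.5%) between 3 h and dawn. In the 842 genes with a range of 3 to 4 the share between late night and dawn was higher, with 157 genes (18.6%). There it stood against 508 (60.3%) between 23 h and 17 h and 451 (53.6%) between 3 h and dawn. Late night and dawn also had the smallest median in the 3647 genes of the narrowest class. The medians there were 0.11 between late night and dawn, 0.19 between 23 h and 17 h and 0.22 between 3 h and dawn. The range includes 17 h and 3 h, which by construction widens the steps on either side. With the range taken over 7 h, 10 h, dusk and 14 h only, an alternative chosen after the data were seen, 181 genes had a range of 4 or more, with medians of 0.38 between late night and dawn, 2.68 between 23 h and 17 h and 1.18 between 3 h and dawn. The 3 steps share libraries and differ in length, and they are set side by side without a test.

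**Figure D4:**
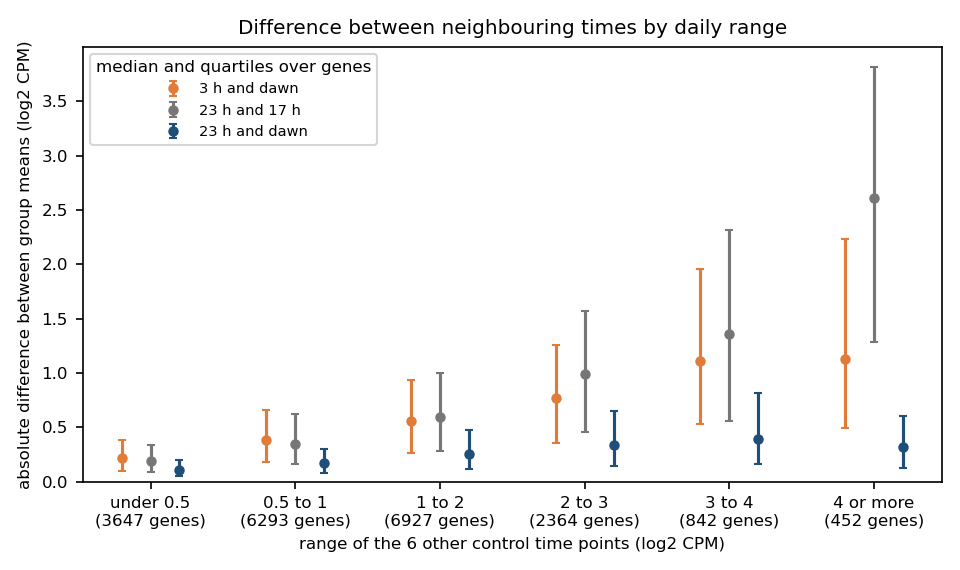
Absolute difference between the mean log2 CPM of neighbouring control times (points, median over genes; bars, quartiles) by the range of the 6 other control times. In the widest class, 452 genes, the median was 0.32 between 23 h and dawn, 2.61 between 23 h and 17 h and 1.13 between 3 h and dawn.

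The 5 called genes were lower in every late-night library than in any dawn library, and by the named-gene rule only a pair of them is given by identifier. MH02t0180700 had 23.3, 24.7, 23.8 and 22.3 CPM in late-night leaves, against 74.6, 31.4, 49.9 and 46.4 CPM in dawn leaves. Dawn replicates ran wide and late-night replicates were nearly level, and the groups did not overlap. The means were 23.5 ± 1.00 CPM at late night and 50.6 ± 17.9 CPM at dawn (SD, n = 4 each), and the log2 fold change was -1.10 with a standard error of 0.21 (edgeR, adjusted p = 0.0255). Over the 8 control times its mean was highest at dawn and next at dusk, with 48.6 ± 16.6 CPM, and lowest at 7 h, with 20.5 ± 4.55 CPM. Through the night its mean was 39.5 CPM at 14 h, 28.3 CPM at 17 h and 23.5 CPM at 23 h, so its dawn level stood above the level at the end of the night. Without the 3 libraries that stood apart the log2 fold change was -0.74 and did not pass the test.

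MH12t0373700 had 8.97, 5.91, 11.7 and 8.22 CPM in late-night leaves, against 27.9, 12.9, 15.5 and 16.5 CPM in dawn leaves. The highest late-night library lay just under the lowest dawn library, so the groups did not overlap but the gap was small. The log2 fold change was -1.07 with a standard error of 0.21 (edgeR, adjusted p = 0.0255). Its mean was lowest of the 8 control times at late night, with 8.69 ± 2.37 CPM, and highest at 10 h, with 29.2 ± 4.92 CPM. The dawn mean of 18.2 ± 6.66 CPM lay near the 3 h and 7 h means of 20.3 and 18.7 CPM. Without the 3 libraries that stood apart its log2 fold change was -0.61 and did not pass the test.

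The other 3 called genes spanned the low and the high end of abundance. The most abundant had 70.2, 63.7, 43.1 and 55.0 CPM at late night, against 92.3, 95.3, 179.7 and 118.4 CPM at dawn, with a log2 fold change of -1.07 ± 0.22 (SE; edgeR, adjusted p = 0.0432). Its mean was 125.9 CPM at 17 h, near the dawn mean of 121.4 CPM, so late night was a low between neighbouring highs. A less abundant gene had 3.49, 1.91, 6.35 and 3.84 CPM at late night, against 16.5, 11.7, 12.2 and 10.3 CPM at dawn, with a log2 fold change of -1.72 ± 0.33 (SE; edgeR, adjusted p = 0.0255). It had the form of a daytime wave, with a mean of 33.5 CPM at 10 h, 13.4 CPM at 14 h and 6.92 CPM at 17 h before the low at late night. The last had 1.37, 1.74, 1.48 and 1.99 CPM at late night, against 17.2, 7.33, 5.39 and 23.5 CPM at dawn, with a log2 fold change of -3.03 ± 0.60 (SE; edgeR, adjusted p = 0.0336). It rested on 10 to 20 counts per late-night library and was highest at dusk, with 31.2 ± 12.1 CPM. Without the 3 libraries that stood apart the log2 fold changes of these 3 genes were -0.92, -1.26 and -3.27, and none passed the test.

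The called genes did not share a time of day. Of the 6 other control times, the highest mean fell at 10 h for 2 of them, at dusk for 2 and at 17 h for 1, where those times held the highest of the 6 in 15.9%, 10.9% and 18.7% of all tested genes. Late night was the lowest of all 8 times in 3 of the 5, against 3299 of all tested genes (16.1%), a count that the choice of genes lower at late night in part fixes. Their late-night to dawn difference had a median of 82.0% of the range over the 6 other times, where the median over all tested genes was 20.3%. The 5 were chosen for that difference, so the share is a description.

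**Figure D5:**
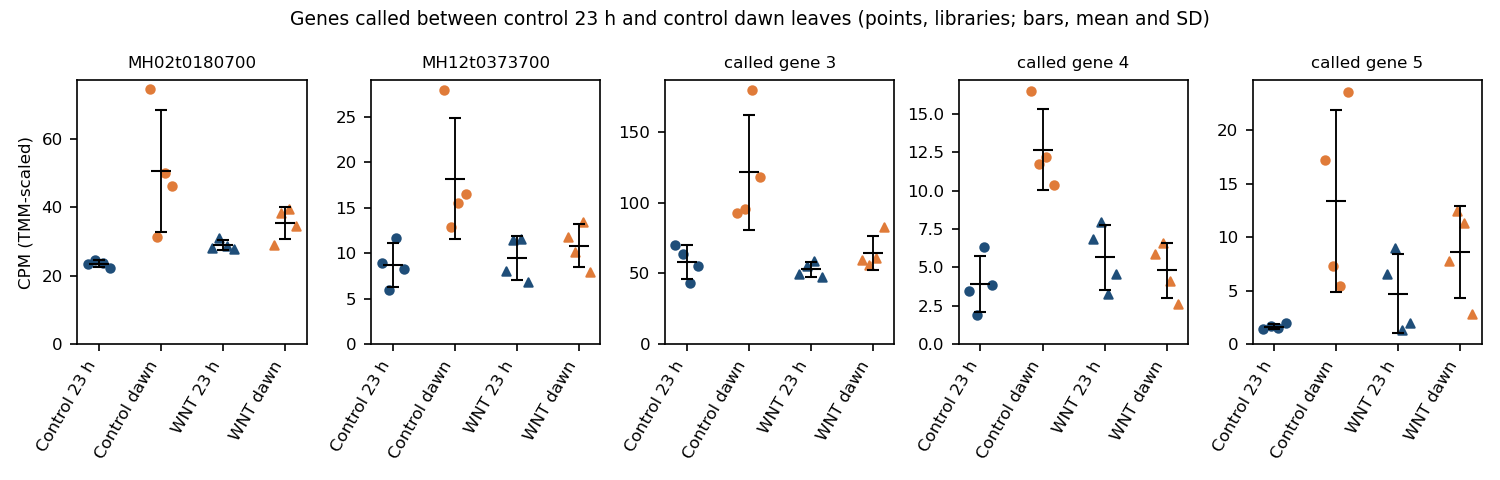
CPM per library (points) with mean and SD (bars, n = 4) of the 5 genes called between control late-night and control dawn leaves, in control 23 h, control dawn, WNT 23 h and WNT dawn leaves. Control 23 h and control dawn libraries do not overlap in any panel, while WNT 23 h and WNT dawn libraries overlap in all 5. The 5 genes were chosen for their difference in control leaves.

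In WNT leaves, which share no library with the control comparison, none of the 5 genes passed the test. MH02t0180700 had 28.9 ± 1.52 CPM in WNT late-night leaves and 35.3 ± 4.70 CPM in WNT dawn leaves (SD, n = 4 each), with a log2 fold change of -0.29 and an unadjusted p of 0.169 (edgeR). MH12t0373700 had 9.46 ± 2.42 CPM in WNT late-night leaves and 10.8 ± 2.34 CPM in WNT dawn leaves, with a log2 fold change of -0.18. Of the 5, 4 had the same sign as in control leaves, and the median log2 fold change was -1.10 in control leaves and -0.29 in WNT leaves. The 5 were chosen for their difference in control leaves, which by construction favours a larger value there. None of the 5 was lower in WNT late-night leaves at an unadjusted p under 0.05, where 4.21% of all tested genes were (edgeR). The difference between the control and the WNT change was itself tested in the same model and did not pass for any of the 5 (edgeR, adjusted p from 0.207 to 0.28). A change in control leaves only is therefore not shown.

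Over all genes, the step from late night to dawn in WNT leaves had 25 called genes (0.122% of those tested), 6 higher and 19 lower at late night, and 877 genes whose groups did not overlap (4.27%). The count and the split by direction depended on the tool and the libraries, with 326 calls by DESeq2 (224 higher, 102 lower), 96 by the likelihood ratio test (51 higher, 45 lower), 7 without the 2 WNT libraries that stood apart, and 5 without WNT late-night replicate 1. Leaving out WNT dawn replicate 4 gave 6 calls, WNT dawn replicate 3 gave 14, and WNT late-night replicate 4 gave 16. The count was highest without WNT dawn replicate 1, with 46 higher and 95 lower. No gene was called in both treatments. Of the 25, 16 had the same sign in control leaves. At an unadjusted p under 0.05 in control leaves (edgeR) there were 2 of the 25, against 5.41% of all tested genes. Across all tested genes the control and the WNT changes had the same sign in 45.6%, with a Pearson r of -0.35 and a Spearman rho of -0.17, given as descriptions since genes are not independent. Without the 5 libraries that stood apart, the signs were the same in 44.7% of 21249 genes, with a Pearson r of -0.05 and a Spearman rho of -0.12. In that fit 3 of the 5 genes called in control leaves and 9 of the 25 called in WNT leaves had the same sign in both treatments. In each treatment the libraries that stood apart lay on unequal sides of the contrast, 1 late-night and 2 dawn libraries in control leaves and 2 late-night libraries and no dawn library in WNT leaves. The difference between the control and the WNT change passed for 2 genes (0.00974%), 1 in each direction, and for none without those 5 libraries. Without them 1391 of 21249 genes had an unadjusted p under 0.05 for the difference (edgeR).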

How the data were processed

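RNA from control and WNT leaves was sequenced in 64 libraries. The authors enriched poly(A) RNA, made directional libraries, aligned the reads and tallied them per gene. The deposited counts are unnormalized whole numbers for 57174 genes, followed by 5 closing lines of uncounted reads, which were left out of tests and library sizes. Uncounted reads are given as shares in the report. The submitters' processing notes name HISAT2 (2) and HTSeq (0.6.0), and the genome build, the annotation and the strand setting are not given in the sources used here. Overlapping, antisense and near-identical genes can therefore share or lose reads.

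Counts were fitted in edgeR 4.0.16 (R 4.3.3) as 16 group means over all 64 libraries, with TMM scaling, a filter at a minimum count of 10 (total 15), robust quasi-likelihood tests and Benjamini-Hochberg adjustment over 20525 genes. Log2 CPM used a prior count of 2. Standard errors were taken as the log2 fold change over the root of F. Single values per library were compared by exact permutation over 70 splits. Depth was 6488788 to 20764372 counts per compared library. No pair of replicates in these groups agreed within sampling noise (chi-square per degree of freedom, summed over genes, at least 10.8). Counting error was not set beside the spread of replicates by level of abundance. Alternatives were other scalings, filters, tools (DESeq2 1.42.0, limma 3.58.1), designs, thresholds and omitted libraries. The scripts were tested on simulated data. By rule, the named genes were those with the largest change in each direction that passed the test, did not overlap and averaged at least 10 CPM, at most 2 each way, and none was higher at late night. The other 3 called genes were described after their values were seen. Members, lists and tests were chosen with earlier results of these data known.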

Additional observations from a re-analysis of the deposited data

Results flagged for a closer look

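Among 22 checks of a library against the rest of its group of 4, 5 found the highest library farther from the others than Dixon's 95% critical value allows, where chance alone gives 1.1. Control dawn replicate 4 had 20764372 gene counts, where the other dawn libraries had 6488788 to 7595649, and 26439 detected genes, where they had 21663 to 22295. Control late-night replicate 2 had 23542 detected genes, against 21945 to 22211 in the other late-night libraries. In the same library 4.88% of reads aligned to several places, against 4.16% to 4.26%. Its likeness to the WNT 23 h profile over the WNT dawn profile was 0.0179, against -0.0179 to -0.0169.

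The late-night to dawn change differed between control and WNT leaves in 2 genes by the test of the difference itself (edgeR, adjusted p = 0.0455 for each). The first had 41.1 ± 5.18 CPM at late night and 47.0 ± 7.67 CPM at dawn in control leaves, and 42.3 ± 3.17 CPM at late night and 123.2 ± 36.5 CPM at dawn in WNT leaves (SD, n = 4 each). The second had 97 ± 16.5 CPM at late night and 167.2 ± 22.6 CPM at dawn in control leaves, and 175.2 ± 31.8 CPM at late night and 119.1 ± 26.0 CPM at dawn in WNT leaves. The control change minus the WNT change was 1.35 and -1.34 on the log2 scale.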

How the results depend on the processing

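Late night against dawn in control leaves gave 5 calls, and 8 with DESeq2-type size factors, 14 by the likelihood ratio test, 21 by DESeq2, 55 by limma-voom, 1 from control libraries only, and 0 in each of 4 settings. These were genes with any count, the compared groups only, an adjusted p under 0.01, and the fit without the 3 libraries that stood apart. That last fit was chosen after seeing the data. At an unadjusted p under 0.05 there were 1420 of 38946 genes with any count and 1376 of 16571 in the compared groups. Without the 3 libraries there were 499 of 21281. Leaving out each library gave 0 to 22. In WNT leaves the 25 calls became 7 by library size only, 40 with CPM above 1 in at least 4 libraries, and 96 by the likelihood ratio test (51 higher). They became 326 by DESeq2 (224 higher), 162 by limma-voom, and 0 in the compared groups only (1599 of 17303 genes at an unadjusted p under 0.05). They became 5 at an adjusted p under 0.01 and 7 without the 2 libraries that stood apart. The calls ran between 5 and 1.4e+02 when each library was left out. The 2 genes of the difference became 1 by library size, 0 with any count, 22 by the likelihood ratio test, 35 by DESeq2 and 39 by limma-voom. They became 0 in the compared groups only (1945 of 18110 genes at an unadjusted p under 0.05). They also became 0 at an adjusted p under 0.01 and 0 without the 5 libraries, with 0 to 6 when each library was left out. The cause of these moves was not tested. Control libraries alone give no value for WNT leaves or the difference, the compared groups alone give no order of steps, and the least abundant called gene was not tested with at least 10 counts in every library. Deviations from the group means had r of -0.26, -0.54, -0.23 and 0.30 between same-numbered control libraries. Between same-numbered WNT libraries r was -0.04, 0.11, -0.07 and 0.34. These values include the libraries that stood apart, so they cannot decide whether same-numbered libraries share more than a number. With the replicate number as a block there were 5 calls in control leaves, 21 in WNT leaves and 1 for the difference. Of the 8 control libraries, 1 correlated best with its own number, where each was matched against the 4 of the other group. So low a count can arise from random matches and does not decide on a pairing. MH02t0180700 and MH12t0373700 kept their sign throughout and passed in 10 of 22 alternatives each, with -1.24 to -0.84 and -1.21 to -0.78 when each library was left out. The 2 placements kept their sign and did not pass under all 14 alternatives.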
